A study of Mus musculus with 6 samples.

Results

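The 10 genes described here are used as markers of dendritic cells, and the question was where the chromatin around them was open in B cells. They are Xcr1, Clec9a and Batf3 of conventional dendritic cells type 1, Cd209a of type 2, Siglech, Tcf4 and Ccr9 of plasmacytoid dendritic cells, and Zbtb46, Flt3 and Itgax of dendritic cells more widely. They are 10 of the 21887 protein-coding genes of the RefSeq table used, and they were chosen by measured values, namely whether these same peak lists had a peak at the ends of each gene. The gene-end peaks are therefore given here as a description, with no test.

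The assay was ATAC-seq, which uses the transposase Tn5 to cut DNA that is not packed away and to tag it for sequencing. The cells were splenic immature B cells sorted as B220+CD93+ from Tcrd-GDL mice, in which the receptor for diphtheria toxin is carried by γδ T cells. All 6 libraries share that strain and that sort. The 3 DTx libraries came from mice given 2 intraperitoneal injections of diphtheria toxin at 15 ng per gram of body weight, spaced 48 h apart, with cells taken on day 8 counted from the first. The 3 untreated libraries came from mice without toxin. The toxin serves to remove γδ T cells, and its other effects and the loss of those cells cannot be told apart in this design. The ages of the mice are not given in the labels, nor is it stated that the numbered libraries came from separate mice, so the spread between them may be technical.

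Dendritic cells take up antigen, show it to T cells and release cytokines. The type 1 conventional cells take up dead cells and present their antigens to CD8+ T cells, and depend on the transcription factor BATF3. Plasmacytoid dendritic cells make type I interferon and depend on TCF4, also called E2-2, which B cells need as well. A peak in ATAC-seq says that the DNA was cut often at that place. It does not say that the gene beside it was transcribed.

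The deposited lists held 44661, 56266 and 60811 peaks in DTx replicates 1, 2 and 3 and 36760, 42504 and 56503 in untreated replicates 1, 2 and 3. DTx replicate 1 and untreated replicate 3 have the layout of narrow peak calling and the other 4 that of broad calling. No more than 0.155% of the intervals of one list recurred unchanged in another, so the lists are distinct. Of 10 B lineage markers, 9 had a peak within 1 kb of a gene end in all 6 libraries, Cd79a, Pax5 and Cd93 among them. Of 10 T cell markers 3 had one in all 6 libraries and 4 in none, Cd3e and Trdc among the genes without one, and of 10 myeloid markers 0 had one in all 6 and 6 had none, among them Lyz2, Mpo and S100a8. Of 10 genes of tissues outside the blood 1, Cdh16, had one in all 6 libraries, 2 in some and 7 in none. Among all 21887 protein-coding genes, 8954 had none in any library. Dendritic cells carried along in the sort were not tested for.

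Strength is given below as the within-list percentile, the share of peaks in the same list whose −log10 q is at or below that of the peak. It is the authors' value for the peak and is set only within a list. A gene end is the first or last base of a gene in the table, and a gene-end peak lies within 1 kb of either. A percentile also depends on which weak peaks a list holds, and the lists differ in length. The regions named come from merging the 6 lists. With both ends counted, every library had a gene-end peak at Xcr1, Zbtb46, Flt3, Clec9a, Siglech and Tcf4, 6 of the 10 members, where 49.2% of all protein-coding genes did. For Batf3 this held in 2 of 3 DTx libraries and 2 of 3 untreated ones, and for Itgax, Ccr9 and Cd209a in 0 of 6. No library had a gene-end peak at 8954 of the 21887 protein-coding genes. In DTx replicates 1, 2 and 3 the number of members with a gene-end peak was 6, 7 and 7, and in untreated replicates 1, 2 and 3 it was the same 6, 7 and 7.

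Few of these genes had a peak at the transcription start given in RefSeq's table of promoters. That table gave a start for 9 of the 10 members, with Tcf4 not among them. For Zbtb46 its start lay 67524 bp from the gene-end peak, which was near the start-side end of the gene. Flt3 was the only member with a peak within 1 kb of its table start in all 6 libraries, 1 of 9, where 51.3% of protein-coding genes with a table start had one. A peak lay over the start itself in 3 of 3 DTx and 3 of 3 untreated libraries for Flt3, in 3 of 3 and 2 of 3 for Siglech, and in 2 of 3 and 1 of 3 for Batf3. For Xcr1, Zbtb46, Clec9a, Itgax, Ccr9 and Cd209a no library had a peak over the start. Thus 1 of 9 members had its start under a peak in all 6 libraries, where 46.3% of protein-coding genes with a table start did. In the 51.3% and the 46.3%, a gene with more than 1 table start counted in a library if any of its starts met the rule. Each of the 9 members has 1 table start, so genes with more starts had more ways to count. The start windows of the 3 members with a peak over the start are shown first below, then that of Xcr1, whose strongest peak lies at its other end, and that of Fyco1, the neighbour whose start lies under that peak. Each is the table's window from 250 bases before to 50 bases after the start, 5′ to 3′ on the gene's strand, from RefSeq on GRCm38.p6, with CpG dinucleotides in capitals. The windows are chr5:147400440-147400739 on the minus strand (Flt3), chr7:55767934-55768233 on the plus strand (Siglech), chr1:191098164-191098463 on the plus strand (Batf3), chr9:123861980-123862279 on the minus strand (Xcr1) and chr9:123851850-123852149 on the minus strand (Fyco1).
Flt3: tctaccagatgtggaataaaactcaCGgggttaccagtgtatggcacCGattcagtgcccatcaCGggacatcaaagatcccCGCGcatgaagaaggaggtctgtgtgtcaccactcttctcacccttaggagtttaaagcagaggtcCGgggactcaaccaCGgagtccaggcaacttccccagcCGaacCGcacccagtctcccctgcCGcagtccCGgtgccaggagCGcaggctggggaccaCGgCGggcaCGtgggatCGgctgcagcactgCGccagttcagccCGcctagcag
Siglech: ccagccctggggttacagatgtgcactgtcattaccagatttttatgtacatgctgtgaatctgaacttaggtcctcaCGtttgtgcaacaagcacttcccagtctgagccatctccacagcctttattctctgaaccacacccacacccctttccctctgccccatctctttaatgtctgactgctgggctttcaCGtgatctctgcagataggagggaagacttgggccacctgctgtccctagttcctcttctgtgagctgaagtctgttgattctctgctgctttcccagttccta
Batf3: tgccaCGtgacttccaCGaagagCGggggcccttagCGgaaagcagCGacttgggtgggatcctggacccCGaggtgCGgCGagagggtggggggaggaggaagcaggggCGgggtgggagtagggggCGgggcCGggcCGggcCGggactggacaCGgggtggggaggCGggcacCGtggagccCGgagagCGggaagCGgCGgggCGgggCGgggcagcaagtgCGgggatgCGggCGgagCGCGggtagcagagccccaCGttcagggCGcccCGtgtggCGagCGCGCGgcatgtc
Xcr1: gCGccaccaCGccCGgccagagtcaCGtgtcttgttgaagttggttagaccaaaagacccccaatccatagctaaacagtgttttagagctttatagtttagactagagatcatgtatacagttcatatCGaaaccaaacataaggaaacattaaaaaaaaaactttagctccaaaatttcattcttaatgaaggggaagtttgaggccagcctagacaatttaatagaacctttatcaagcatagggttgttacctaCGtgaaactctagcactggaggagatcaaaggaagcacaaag
Fyco1: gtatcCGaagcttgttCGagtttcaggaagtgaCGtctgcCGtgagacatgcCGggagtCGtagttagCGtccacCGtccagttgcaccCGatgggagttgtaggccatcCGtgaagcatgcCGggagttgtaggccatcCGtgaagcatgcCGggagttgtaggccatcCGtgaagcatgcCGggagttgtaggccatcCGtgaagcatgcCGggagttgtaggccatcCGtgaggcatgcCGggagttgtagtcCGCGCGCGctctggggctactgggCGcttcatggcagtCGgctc

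The 3 windows under peaks differ in composition. Batf3 has 34 CpG in 300 bases and Flt3 18, and these are the 2 members whose observed over expected CpG ratio is above 0.6, at 0.914 and 0.647, as it is in 35.8% of all promoters. Siglech has 2 CpG, with a ratio of 0.112, and was still under a peak in 5 libraries. The other 6 members with a window have between 1 and 6 CpG, and the median over the 9 is 4, against 7 over all 32851 promoters of the table. Fyco1 has 25, with a ratio of 0.935. Short motifs were searched on both strands, and a match is a description of letters only. The GC box GGGCGG occurs 5 times in the Batf3 window and in no other member's, and 35.7% of all promoters hold it. The E2 form of the E-box, CAGGTG, the kind of site that E proteins such as TCF4 bind, occurs once each in the Siglech, Zbtb46 and Ccr9 windows and in 20.2% of all promoters, and it is also a match to the E-box CANNTG (72.3%). The AP-1 motif TGANTCA occurs in the Zbtb46 and Itgax windows (7.81% of promoters) and the ETS-IRF composite element in that of Cd209a (2.72%). The PU.1 form GAGGAAGT (3.20%) and the octamer ATGCAAAT (1.74%) match none of the 9 windows, and the ETS core GGAA, which the composite and the PU.1 form contain, is in 96.0% of promoters.

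**Figure D1:**
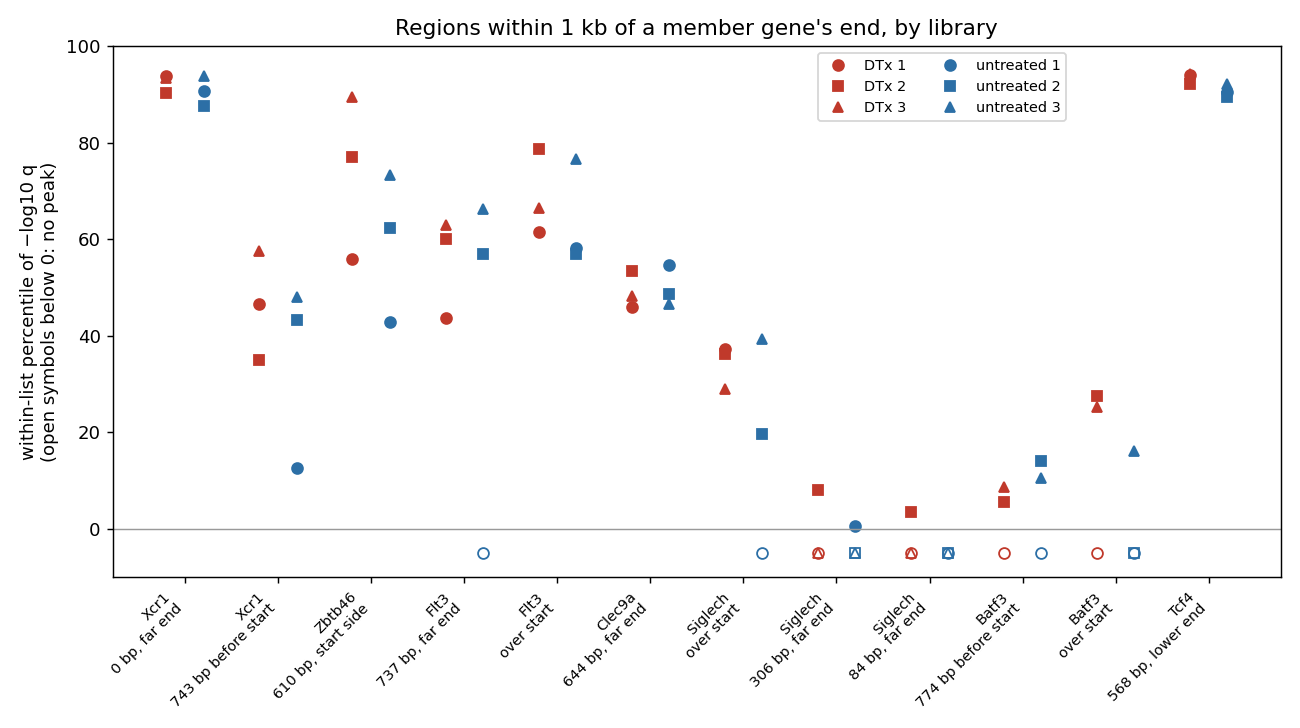
Within-list percentile of −log10 q (vertical axis) of the 12 regions within 1 kb of a member's end, 1 symbol per library, DTx libraries in red to the left of untreated libraries in blue. Open symbols below 0 mark libraries with no peak there. Xcr1 at its far end and Tcf4 stand at the top in both groups, Batf3 and the far end of Siglech near the bottom.

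Xcr1 encodes the receptor by which type 1 conventional dendritic cells respond to the chemokine XCL1. It lies at chr9:123852315-123862029 on the minus strand. Its gene-end peak, at chr9:123850863-123852463, stood at the 93.8th, 90.3rd and 93.4th percentile in DTx replicates 1, 2 and 3 and at the 90.6th, 87.5th and 93.7th in untreated replicates 1, 2 and 3. The groups overlap. This region lies at the far end of Xcr1, opposite the start, and covers the start of Fyco1 (123851899), a gene for an adaptor of vesicle transport on the same strand. In untreated replicate 1 the peak stopped 68 bp short of Xcr1. At the start of Xcr1 itself the nearest region was chr9:123862772-123864016, 743 bp before it. It was called in all 6 libraries, at the 46.5th, 34.9th and 57.6th percentile in the DTx and at the 12.6th, 43.1st and 47.9th in the untreated libraries. The groups overlap here too. The peak of DTx replicate 2 reached within 1 kb of the start, while the peaks of the other 5 libraries began 1033 to 1263 bp before it. A region 9894 bp before the start (chr9:123871923-123872836) was stronger, at the 65.7th, 68.0th and 71.9th percentile in the DTx and the 48.6th, 49.4th and 73.3rd in the untreated libraries.

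Clec9a encodes a receptor for dead cells on type 1 conventional dendritic cells. It lies at chr6:129408862-129424764 on the plus strand, and its gene-end peak was inside the gene, 644 bp from the far end (chr6:129423496-129424120). That region stood at the 46.0th, 53.4th and 48.2nd percentile in DTx replicates 1, 2 and 3 and at the 54.7th, 48.7th and 46.6th in untreated replicates 1, 2 and 3. These are middling values that overlap between the groups. A region before the start (chr6:129407034-129407843) ended 1019 bp from it, just outside the limit, and was called in all 6 libraries as well. The strongest region of any member's window lay 9338 bp beyond the far end (chr6:129434102-129434761), at the 99.3rd, 98.9th and 98.4th percentile in the DTx and the 99.1st, 99.1st and 98.0th in the untreated libraries. The groups overlap there as well. The nearest end of another gene, that of the C-type lectin gene Clec12b, was 6468 bp away.

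Batf3 encodes the AP-1 family factor on which type 1 conventional dendritic cells depend. It lies at chr1:191098414-191108943 on the plus strand. A region over its CpG-rich start (chr1:191098346-191098649) was called in DTx replicates 2 and 3, at the 27.5th and 25.1st percentile, and in untreated replicate 3, at the 16.2nd. A region 774 bp before the start (chr1:191097262-191097640) was called in DTx replicates 2 and 3, at the 5.48th and 8.62nd percentile, and in untreated replicates 2 and 3, at the 14.0th and 10.5th. Both were weak in every library that had them, and DTx replicate 1 and untreated replicate 1 had neither. In equal-length lists, which keep the top 36760 peaks of every library by −log10 q, a gene-end peak of Batf3 was left in 0 of 3 DTx libraries and 1 of 3 untreated ones. The strongest region of the window, chr1:191125677-191126370, lay 349 bp from an end of Gm46178, at the 71.0th, 82.7th and 79.3rd percentile in the DTx and the 77.0th, 68.3rd and 81.7th in the untreated libraries.

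Cd209a encodes a C-type lectin of the DC-SIGN family found on type 2 conventional dendritic cells. It lies at chr8:3743395-3748984 on the minus strand and had 1 region in its whole window, 5421 bp before the start (chr8:3754405-3754608). No DTx library had it. Untreated replicates 2 and 3 did, at the 22.2nd and 16.1st percentile, and untreated replicate 1 did not.

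Siglech encodes a lectin of plasmacytoid dendritic cells, at chr7:55768154-55779448 on the plus strand. The region over its start (chr7:55767906-55768439) stood at the 37.3rd, 36.3rd and 28.9th percentile in DTx replicates 1, 2 and 3, and at the 19.6th and 39.4th in untreated replicates 2 and 3. That region also lay 157 bp from an end and a table start of Gm39015, a long non-coding RNA gene. Untreated replicate 1 had no peak there. It counts as having a gene-end peak only through one at the 0.544th percentile, 306 bp from the far end of the gene, in a region (chr7:55778063-55779142) that DTx replicate 2 also had. A further region 84 bp from that end (chr7:55779216-55779364) was called in DTx replicate 2 only, at the 3.57th percentile. The strongest region of the window, chr7:55793722-55794759, covered an end of Tubgcp5, 14274 bp beyond Siglech.

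Tcf4 encodes the E protein that directs the plasmacytoid fate, and it is also active in B cells. It is the longest member, at chr18:69343429-69687967, and had the most regions, 32 in its window and 16 of them in all 6 libraries. Its gene-end peak, 568 bp inside the lower-coordinate end (chr18:69343997-69344912), stood at the 94.1st, 92.1st and 94.2nd percentile in DTx replicates 1, 2 and 3 and at the 90.5th, 89.5th and 92.0th in untreated replicates 1, 2 and 3. Every DTx value is above every untreated one, but by rank among the regions shared by all libraries, used below, the groups overlap (91.4, 85.7 and 88.6 in the DTx, 88.8, 85.6 and 85.4 in the untreated libraries). This peak and that of Xcr1 were the strongest gene-end peaks of the members. A second strong region lay 42804 bp inside the other end (chr18:69644279-69645163), at the 90.4th, 94.3rd and 94.5th percentile in the DTx and the 87.4th, 90.5th and 92.0th in the untreated libraries. No end of another gene lay within 1 kb of any region of the Tcf4 window.

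Ccr9 encodes a chemokine receptor for CCL25, on plasmacytoid dendritic cells and gut-homing lymphocytes. It lies at chr9:123767211-123783457 on the plus strand and had no gene-end peak, the nearest region being 1745 bp inside the gene from its start (chr9:123768956-123769973), in all 6 libraries. A strong region lay 12387 bp before the start (chr9:123754206-123754824). It stood at the 92.6th, 96.8th and 99.3rd percentile in DTx replicates 1, 2 and 3 and at the 93.1st, 96.3rd and 90.5th in untreated replicates 1, 2 and 3. The groups overlap, and all 6 values are high. That region was 9883 bp from the nearest end of another gene, Gm17021.

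Zbtb46 encodes a zinc finger factor of conventional dendritic cells, at chr2:181371009-181493262 on the minus strand. Its gene-end peak (chr2:181491912-181492652) lay 610 bp inside the start-side end of the gene and 554 bp from an end of Abhd16b, and the start given in the table is 67524 bp from it. It stood at the 55.8th, 77.1st and 89.5th percentile in DTx replicates 1, 2 and 3 and at the 42.8th, 62.3rd and 73.3rd in untreated replicates 1, 2 and 3, and the groups overlap. The strongest region of the window, chr2:181496042-181497847, covered an end of Tpd52l2 and lay 2780 bp outside Zbtb46, at the 96.1st, 93.5th and 90.8th percentile in the DTx and the 88.0th, 92.1st and 95.7th in the untreated libraries, which overlap.

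Flt3 encodes the receptor for the growth factor FLT3 ligand, on which dendritic cells depend, and early lymphoid progenitors carry it too. It lies at chr5:147330741-147400489 on the minus strand. The region over its start (chr5:147399892-147401228) stood at the 61.5th, 78.7th and 66.5th percentile in DTx replicates 1, 2 and 3 and at the 58.2nd, 56.9th and 76.7th in untreated replicates 1, 2 and 3. The region also covers a table start of Gm26597, a long non-coding RNA gene with an end 338 bp away, so the peak is not at the start of Flt3 alone. A region 737 bp inside the far end (chr5:147331478-147331891) was called in all 3 DTx libraries, at the 43.6th, 60.0th and 62.9th percentile, and in untreated replicates 2 and 3, at the 56.9th and 66.2nd. Stronger than either was chr5:147340757-147341569, 10016 bp inside the far end, at the 95.8th, 95.0th and 98.0th percentile in the DTx and the 94.0th, 95.3rd and 94.1st in the untreated libraries. Of the 18 regions in the Flt3 window, 8 were called in all 6 libraries.

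Itgax encodes CD11c, the integrin chain by which most dendritic cells are identified, at chr7:128129526-128150657 on the plus strand. It had no gene-end peak. Its nearest region lay 3995 bp inside the gene (chr7:128133521-128134087) and was called in all 6 libraries, at the 49.4th, 66.9th and 65.1st percentile in the DTx and the 43.5th, 59.5th and 69.0th in the untreated libraries. Another region inside the gene and one 52 bp from an end of Gm17831 were also in all 6.

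Setting the neighbours aside changed which members carried a gene-end peak of their own. When peaks nearer to an end of another gene (at equal distance, by the midpoint of the peak) were left out, Flt3, Clec9a, Siglech and Tcf4 kept one in every DTx and every untreated library. Xcr1 kept one in DTx replicate 2 alone, Zbtb46 in no library, and Batf3 in 2 of 3 libraries of each group as before. With the limit at 500 bp instead of 1 kb, 3 members remained in all 6 libraries, and with peaks within 1 kb of the table start alone 1 did. The share of all protein-coding genes was not computed for the 500 bp limit or with the nearer peaks left out. The 49.2% given above does not apply to those counts. Just inside the 1 kb limit lay the regions at Flt3 (737 bp), Xcr1 (743 bp) and Batf3 (774 bp), and just outside it those at Clec9a (1019 bp) and Ccr9 (1745 bp).

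In the 10 genes and the 20 kb on each side of them there were 95 regions, none of them shared by a pair of members. Of these, 12 were gene-end regions and 83 lay elsewhere, and 14 of the 95 lay within 1 kb of, and nearer to, an end of another gene. In all, 51 (53.7%) were called in all 6 libraries, where 44.1% of the 70174 regions of the whole genome were. The members had a median of 6 regions each, 4 of them in all 6 libraries, against 3 and 2 for all protein-coding genes. Per 10 kb of window the medians were 0.949 and 0.488. The members were chosen by their gene-end peaks and the 12 gene-end regions are counted here. These contrasts with the genome are therefore a description only. Only Cd209a had no region in all 6 libraries, as did 30.5% of protein-coding genes. The regions in all 6 libraries were 816 bp wide at the median, against 890 bp over the genome, and 3 of the 51 stood at or above the 90th percentile in every library. How many such regions over the genome did so was not computed.

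**Figure D2:**
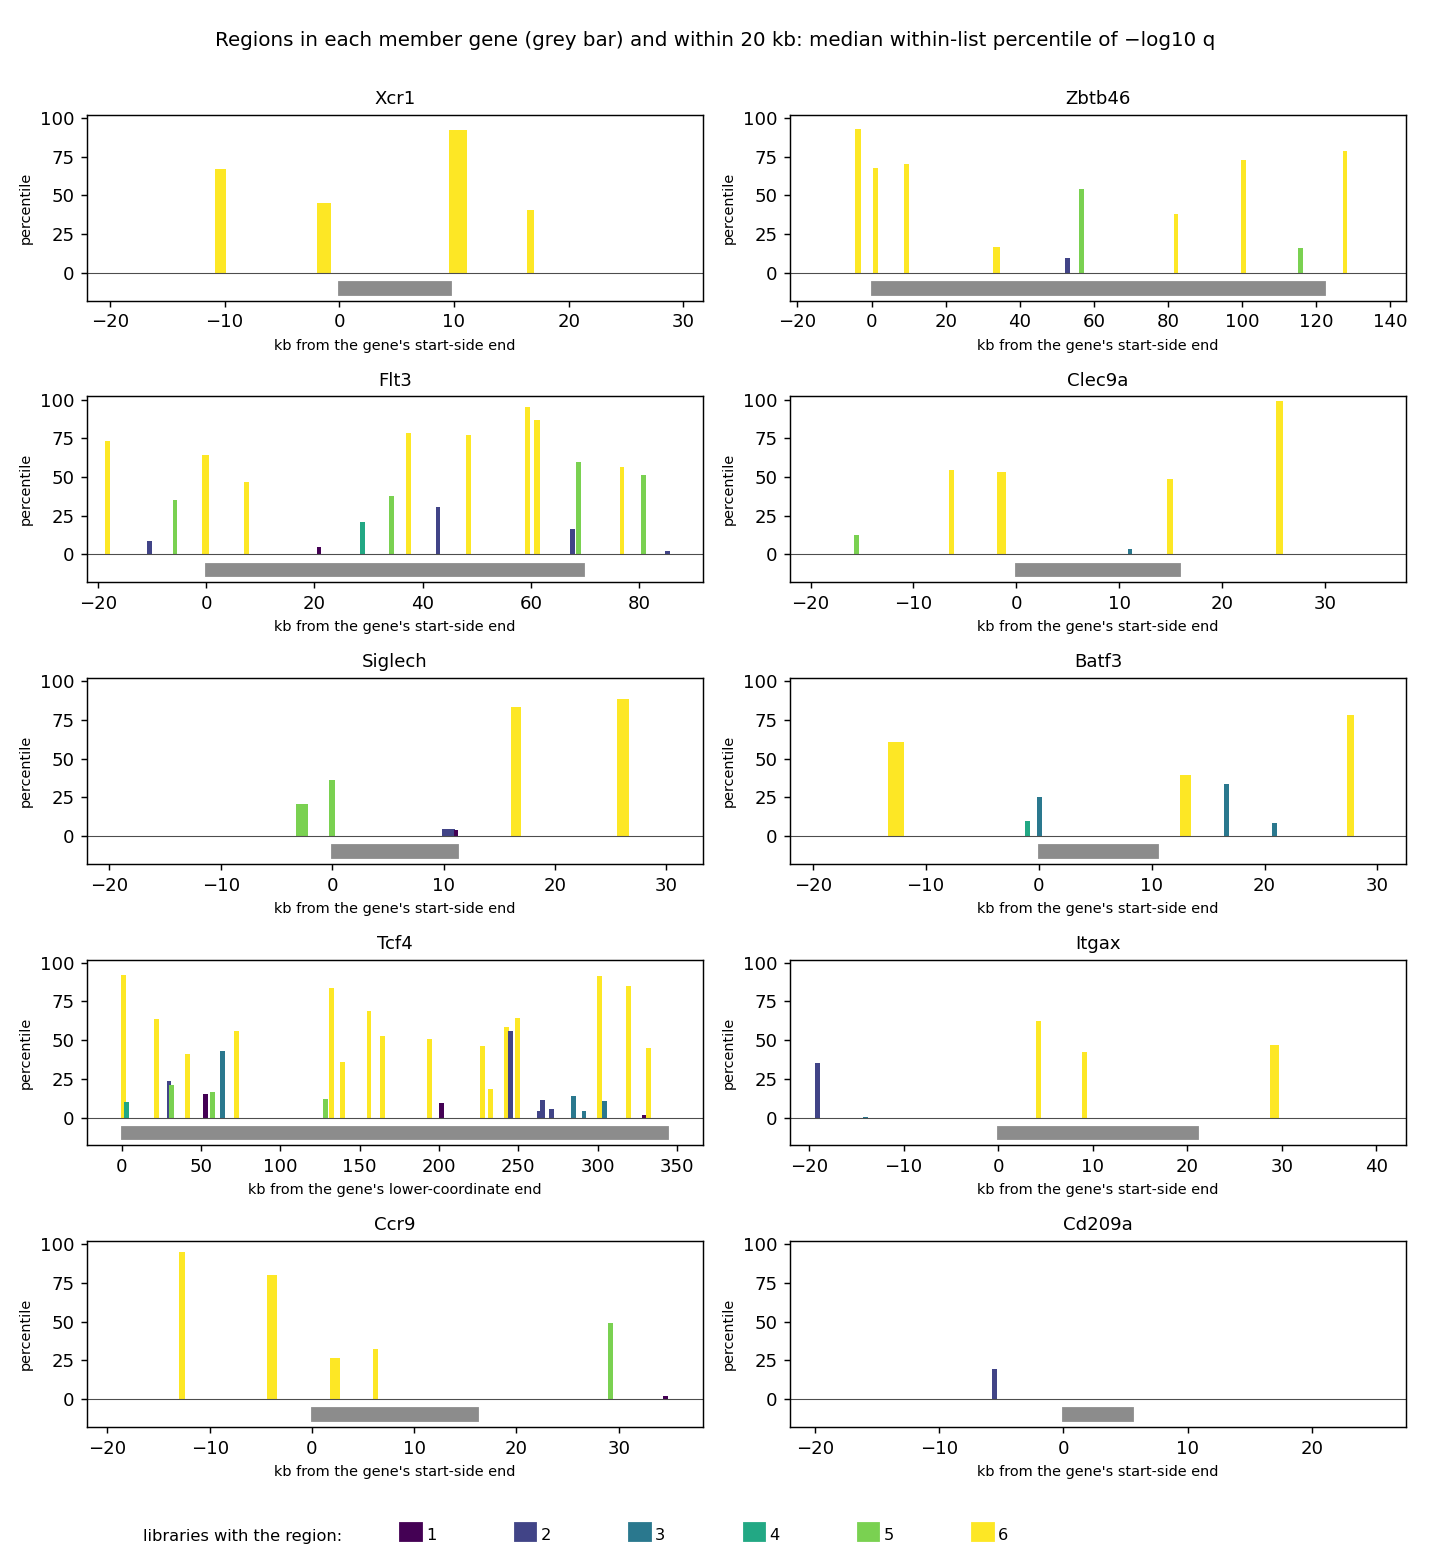
Each panel shows a member gene (grey bar) and the 20 kb on either side, in kb from the start-side end (from the lower-coordinate end for Tcf4). Bars mark regions, drawn no narrower than a fixed share of the panel, with the median within-list percentile as height and the number of libraries as colour. The Clec9a window holds the tallest bar, past the far end, and the Cd209a window a single low one.

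The number of members with a gene-end peak had the same mean in DTx and in untreated libraries, 6.67 ± 0.58 and 6.67 ± 0.58 (SD, n = 3 each). Gene-end peaks in 3 of 3 DTx and 0 of 3 untreated libraries were found at 0 members (0.0366% of all protein-coding genes), and the reverse at 0 members (0.00457%). In equal-length lists the number of members was 6, 6 and 5 in DTx replicates 1, 2 and 3 and 6, 7 and 6 in untreated replicates 1, 2 and 3, or 5.67 ± 0.58 and 6.33 ± 0.58 (SD, n = 3 each). There the 5 members with a gene-end peak in all 6 libraries were the same 6 without Siglech, which 2 of 3 DTx libraries kept. The share of all protein-coding genes with a gene-end peak in all 6 equal-length lists was not computed.

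More peaks lay in the DTx than in the untreated windows of the deposited lists, and the DTx lists are also longer on average. The 10 windows held 70, 83 and 86 peaks in DTx replicates 1, 2 and 3 and 62, 63 and 81 in untreated replicates 1, 2 and 3, or 79.7 ± 8.50 and 68.7 ± 10.7 (SD, n = 3 each). The groups overlap. Per 1000 peaks of the list these are 1.57, 1.48 and 1.41 in the DTx and 1.69, 1.48 and 1.43 in the untreated libraries. In equal-length lists the windows held 56, 55 and 57 peaks in the DTx and 62, 57 and 54 in the untreated libraries, or 56.0 ± 1.00 and 57.7 ± 4.04 (SD, n = 3 each), so the excess was not present at equal length. Within the broad layout the DTx libraries had 22 more peaks and within the narrow pair 11 fewer. Flt3 had 13, 14 and 18 peaks in the DTx and 10, 11 and 15 in the untreated libraries (two-sided exact permutation p = 0.3), and Zbtb46 had 9, 10 and 10 and 8, 8 and 9 (p = 0.2 by the same exact test). Xcr1 had 4 peaks in every library. No member's counts separated the groups, in the deposited or the equal-length lists, and each exact permutation p adjusted over all genes was 1. Over the genome, 2.18% of the 17233 protein-coding genes with at least 1 peak in the window had counts above those of every untreated library in every DTx library of the deposited lists, and 0.0232% had counts below. In the equal-length lists these shares were 0.908% and 0.847% of 16411 genes.

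**Figure D3:**
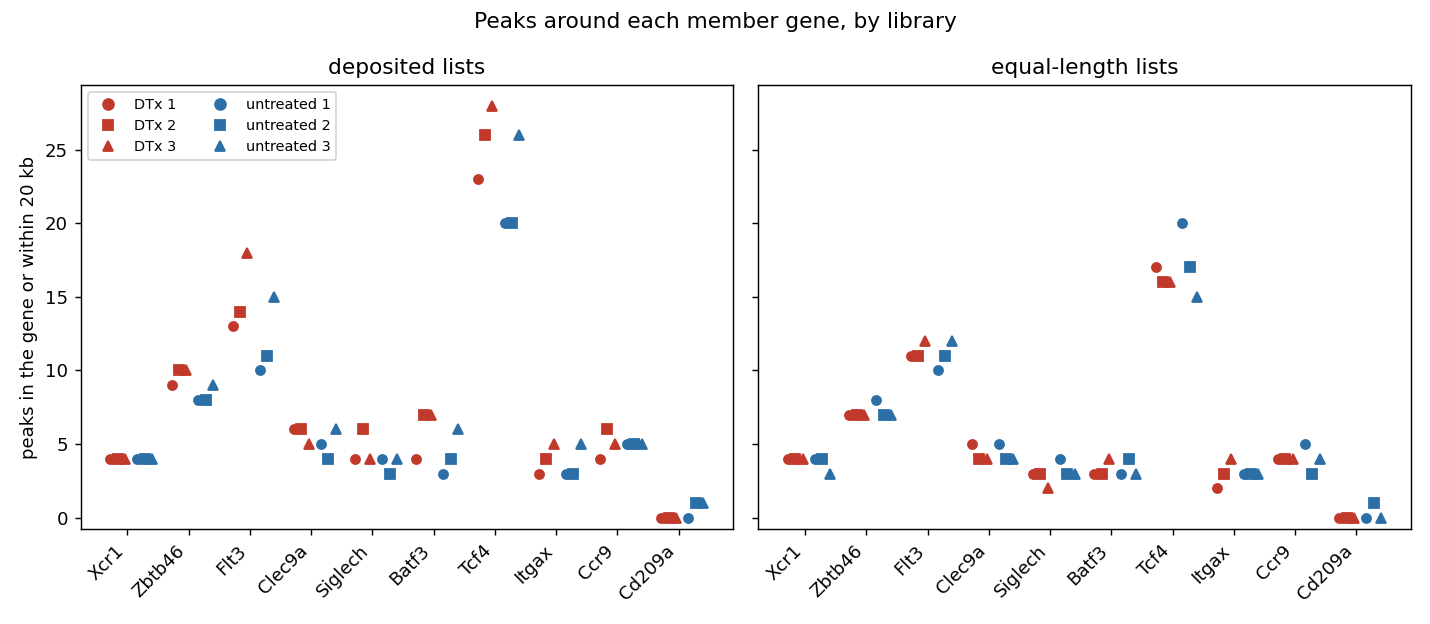
Peaks in each member gene or within 20 kb of it (vertical axis), 1 symbol per library, DTx in red left of untreated in blue, in the deposited lists (left panel) and in lists cut to 36760 peaks (right panel). Tcf4 has 23 to 28 peaks in DTx and 20 to 26 in untreated libraries of the deposited lists, and in the equal-length lists the symbols of the groups overlap for every member.

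Of the 95 regions, 2 were in all 3 DTx libraries and in 0 of 3 untreated ones, a pattern held by 0.705% of all regions, and 0 showed the reverse, held by 0.0242%. The first lay inside Tcf4 (chr18:69406936-69407195), at the 25.3rd, 42.7th and 44.1st percentile in DTx replicates 1, 2 and 3. It was in 3 of 3 DTx and 0 of 3 untreated equal-length lists too. The other lay 10106 bp beyond the far end of Batf3 (chr1:191119049-191119549), at the 8.11th, 4.16th and 28.9th percentile, and in no equal-length list. Both are of low or middling strength. The count of 2 was 6 without DTx replicate 1, and 3 without DTx replicate 2 or without untreated replicate 3. It was 11 within the broad layout and 5 within the narrow pair, where 16 regions showed the reverse. These settings compare fewer libraries, which makes the pattern easier to meet. Shares over all regions were not computed for them, and 0.705% and 0.0242% do not apply to them. Of the 44 regions called in 1 to 5 libraries, 31 were in more DTx and 5 in more untreated libraries. That is 70.5% in more DTx libraries, against 65.1% of such regions over the genome. DTx replicates 1, 2 and 3 had 18, 32 and 35 of the 44 and untreated replicates 1, 2 and 3 had 11, 12 and 28, with the fewest in the 3 shortest lists, and the part of list length in the result was not tested.

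The 51 regions called in all 6 libraries were compared by rank among the 30954 such regions of the genome, in percent, which has the same length in every library. In 3 of the 51 every DTx library ranked above every untreated one, where 3.97% of all shared regions did, and in 1 every DTx library ranked below, where 4.77% did. These shares are near the background, and each of the 4 has a two-sided exact permutation p = 0.1, the smallest that 3 libraries against 3 allow, with an adjusted p of 1. The difference between groups was positive in 26 and negative in 25 regions, with a median of 0.06 percentage points, against -0.13 over the genome.

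The 4 regions are given for their values. Inside the Xcr1 window, chr9:123845021-123845683 ranked at 32.3, 19.0 and 22.6 in DTx replicates 1, 2 and 3 and at 17.4, 10.5 and 6.14 in untreated replicates 1, 2 and 3, or 24.7 ± 6.89 and 11.4 ± 5.69 (SD, n = 3 each). This region lies 427 bp from Gm51700 and 6632 bp from Xcr1. Inside Flt3, chr5:147362733-147363617 ranked at 68.1, 77.5 and 68.0 in the DTx and at 64.7, 61.0 and 61.3 in the untreated libraries. The region 1019 bp before the start of Clec9a ranked at 34.4, 29.5 and 23.4 in the DTx and at 21.7, 18.0 and 22.9 in the untreated libraries. Both were higher in every DTx library, by 8.85 and 8.22 points between the group means. Inside Zbtb46, chr2:181458530-181460460 ranked at 0.0969, 2.02 and 2.55 in the DTx and at 7.76, 2.80 and 3.92 in the untreated libraries, near the bottom of the ranks in both groups. The count of 4 was 13 without DTx replicate 1, 10 without untreated replicate 1, and 8 without untreated replicate 2 or without untreated replicate 3. The shares over the genome were larger there too. Without DTx replicate 1, 10.7% of all shared regions were higher and 12.3% lower in DTx. Without untreated replicate 1, 2 or 3 in turn, 8.7%, 9.11% and 8.55% were higher and 9.81%, 10.2% and 9.32% lower. The balance of 3 higher and 1 lower was 4 and 4 without untreated replicate 3, and 2 and 3 when regions were ranked by fold enrichment.

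**Figure D4:**
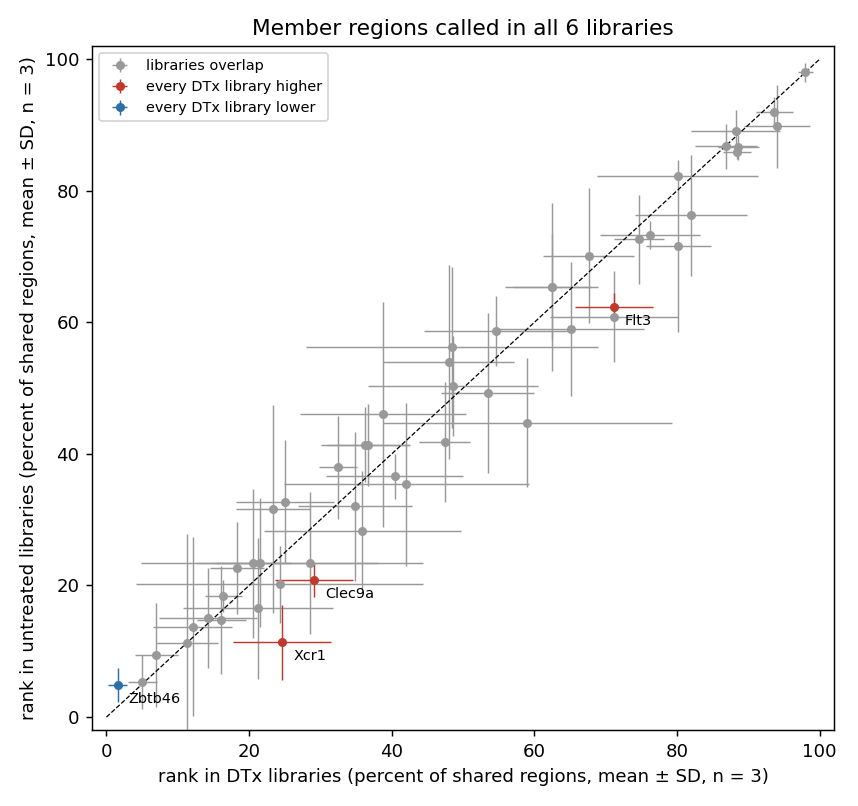
Mean rank in percent of shared regions for the 51 member regions called in all 6 libraries, DTx on the horizontal and untreated on the vertical axis, with SD bars (n = 3 each) and the line of equality. The points lie along the line, and the named ones are those whose libraries do not overlap, 3 higher in DTx (red) and 1 lower (blue).

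The members and the dendritic cell lists were chosen with earlier results of these data known, so the counts here are a description. Of the 30 genes of these lists that are not members, 18 (60%) were called at an end in all 6 libraries. A further 3 were called in some and 9 in none, beside the 49.2% of all protein-coding genes in all 6. Of all 21887 protein-coding genes, 8954 were called in none. Those in all 6 were Irf8, Id2, Wdfy4, Tlr3 and Nfil3 of the type 1 list, Irf4, Klf4, Notch2 and Relb of the type 2 list, Bst2, Spib, Pacsin1 and Tlr9 of the plasmacytoid list, and Ccr7, Csf2ra, Csf2rb, Spi1 and Cd83 of the shared list. Many of these are also genes of B cells, such as the transcription factor genes Irf8, Irf4, Spib and Spi1 and the DNA sensor gene Tlr9. Tlr9 lay between the 95.4th and the 98.2nd percentile and Irf8 between the 74.8th and the 93.1st. Zeb2 was called in 2 of 3 DTx libraries and 3 of 3 untreated ones, Fscn1 in 2 of 3 of each group, and Tlr7 in 0 of 3 DTx libraries and 2 of 3 untreated ones. These calls were of low or middling strength, between the 9.28th and 43.9th percentile for Zeb2, the 13.6th and 19.2nd for Fscn1, and the 1.92nd and 26.4th for Tlr7. The share of all genes with the Tlr7 pattern was not computed. Cadm1, Itgae, Clec10a, Sirpa, Mgl2, Clec4a4, Runx2, Cox6a2 and Kit had none. By list, with members included, 7 of 10 type 1, 4 of 10 type 2, 6 of 10 plasmacytoid and 7 of 10 shared genes were called in all 6 libraries.

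**Figure D5:**
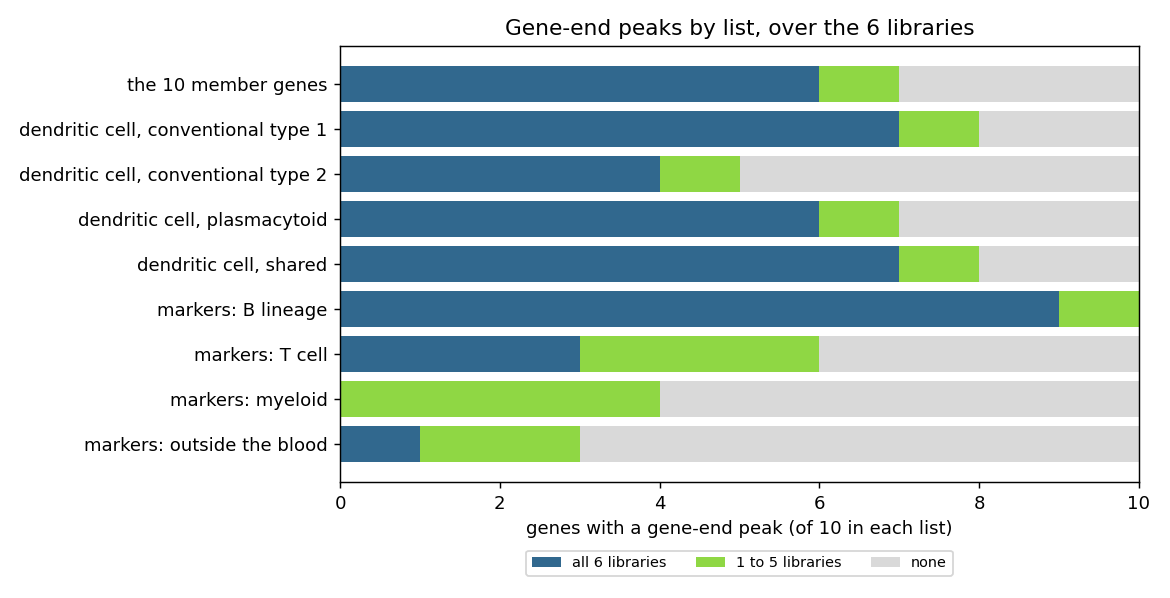
Number of genes (horizontal axis, of 10 in each list) with a gene-end peak in all 6 libraries (blue), in 1 to 5 (green) and in none (grey), for the members at the top, the dendritic cell lists, which include the members, and the marker lists. The B lineage list has 9 genes in all 6 libraries and the myeloid list 0.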

How the data were processed

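ATAC-seq of 6 libraries was analysed from 1 deposited peak list each. The authors used Trim Galore 0.4.3, Bowtie2 2.3.2 with the mm10 genome, and MACS2 2.1.1, per the submitters' processing notes. Read shifting, duplicate removal and read totals are not stated there, so the depth is unknown and no interval that needs it is given. The lists hold, per the file headers, a pileup (coverage signal) and a fold enrichment ratio, and the deposited −log10 p and −log10 q columns, whose headers are damaged, were identified from their order and values. The −log10 q and fold are the authors' own values per peak and were used only within a list. Broad or narrow calling was read from the layout of each list.

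Each list had 2 peaks outside the 19 autosomes, X and Y, which were left out. Peaks of all lists that overlapped by at least 1 bp were merged into regions, with the strongest peak of a library standing for it. Gene positions came from the RefSeq table of GRCm38.p6, the build of mm10, with no exons, so introns and exons were not told apart, and starts and strands from its promoter table. Equal-length lists kept the top 36760 peaks by −log10 q. Ranks and window counts were compared by a two-sided exact permutation test over 20 relabellings (smallest p 0.1), adjusted by the Benjamini-Hochberg method over all regions or genes. Functions were tested on simulated lists. Alternatives were equal-length lists, a −log10 q of at least 5, each layout alone, other distances and windows, ranks by fold or pileup, a replicate block and leaving out each library. All members are named, each with its gene-end regions and its strongest other region, together with nearer neighbours and the other dendritic cell genes by group. The members and lists were chosen with earlier results of these data known. Python 3.11.15, NumPy 2.4.6, pandas 2.3.3 and matplotlib 3.10.9 were used.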

Additional observations from a re-analysis of the deposited data

How the results depend on the processing

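The 6 members with a gene-end peak in all 6 libraries became 3 with a limit of 500 bp and 1 with peaks near the table start alone, and stayed at 6 without any single library. It was 4 to 6 under the other settings. Shares of all protein-coding genes were not computed for these settings, except for the table start. The difference in members per library, DTx minus untreated, was 0, and became -0.667 in equal-length lists, 0.667 with a −log10 q of at least 5, -1 in the narrow pair and 0.667 with starts alone, with -0.333 to 0.333 when 1 library was left out. The difference in window peaks was 11, and became -1.67 in equal-length lists, 22 in the broad layout and -11 in the narrow pair, with 7.67 to 17.2 when 1 library was left out.

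The 2 regions that all DTx libraries and 0 untreated ones had became 1 in equal-length lists, with a −log10 q of at least 5, with a 10 kb window and with the stricter overlap, 11 in the broad layout and 5 in the narrow pair, with 2 to 6 when 1 library was left out. The reverse count of 0 became 16 in the narrow pair, with 0 to 1 when 1 library was left out (1 when it was DTx replicate 3 or untreated replicate 1). For each layout alone and for left-out libraries, the shares of all regions with these patterns were not computed. The 4 regions with separate ranks became 1 with a −log10 q of at least 5. They became 19 in the broad layout (12 higher and 7 lower in DTx, where 16.8% and 18.4% of shared regions were). When 1 library was left out there were 4 to 13. In those settings 7.39% to 10.7% of all shared regions were higher and 7.91% to 12.3% lower in DTx. Fewer libraries make both patterns easier to meet. The causes of the other shifts were not tested. Ranks by fold enrichment gave 2 higher and 3 lower in DTx, and leaving out untreated replicate 3 gave 4 and 4, against 3 and 1. The narrow pair gave no value for separate ranks.

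Taking same-numbered libraries as a replicate block left the differences at 0 members and 11 window peaks and gave 9 regions (7 higher and 2 lower in DTx) in which every pair moved one way, where 11.2% of shared regions were higher and 12.6% lower in DTx in every pair. The pairing is by number only: same-numbered libraries deviated from their group means with correlations of 0.187, 0.0583 and -0.0751 over shared regions, and DTx replicate 3 correlated best with untreated replicate 2.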
